A study of Homo sapiens and Mus musculus with 69 samples.

Results

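The human Schlafen genes *SLFN5*, *SLFN11*, *SLFN12* and *SLFN13*, 4 of the 20516 genes in the RNA-Seq table of small cell lung cancer (SCLC) cell lines, were followed across all 60 human libraries. They were chosen by measured values: neighbouring *SLFN* genes were listed at 0 in all 6 libraries of *STING1*-KO COR-L88 cells. That difference between knockout and intact COR-L88 cells is therefore given as a description, without a test. The table held 3 other rows named SLFN, *SLFN12L*, *SLFN14* and *SLFNL1*.

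The libraries came from poly(A) RNA of 4 established human SCLC lines, in 20 groups of 3. H82 (NCI-82 in the labels) contributed 7 groups, namely the parental line and 3 lines carrying a doxycycline-inducible NOTCH1 intracellular domain (N1ICD), each without (no Dox) and with (Dox) doxycycline. Of those 3 lines, 1 was otherwise intact, 1 carried a *REST* KO and 1 a *STING1* KO. H524 (NCI-H524) contributed 5 groups, the parental line and lines with inducible N1ICD or inducible *REST*, each with and without Dox. H69 (NCI-H69) contributed parental cells and N1ICD cells with and without Dox. COR-L88 contributed 5 groups. Intact cells were treated with DMSO, with the LSD1 inhibitor TAS1440, or with TAS1440 plus a gamma-secretase inhibitor (GSI), which blocks release of the NOTCH intracellular domain. *STING1*-KO cells were treated with DMSO or TAS1440. Per the study's methods, induced overexpression lines were collected as adherent cells after long-term culture with Dox. The knockouts were made with CRISPR-Cas9, and the study describes single-cell clones for the *REST* and *STING1* knockouts without saying which were sequenced. The labels do not say whether a group's 3 libraries came from separate cultures or clones, so *P* values measure only the spread between these libraries.

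Schlafen proteins share an N-terminal domain related to RNA-cleaving enzymes, and several members are induced by interferons. SLFN11 is recruited to stalled replication forks through the single-strand DNA-binding protein RPA and sensitizes cells to DNA-damaging drugs, and in SCLC it is studied as a marker of response to such drugs. SLFN12 can be stabilized by binding the phosphodiesterase PDE3A under some conditions and can then degrade certain tRNAs. SLFN13 cleaves tRNA and rRNA. SLFN5 is a nuclear member that acts as a transcriptional corepressor.

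The members lie side by side on chromosome 17 (GRCh37 positions from the GENCODE annotation). *SLFN5* occupies chr17:33570090-33600674 on the plus strand. *SLFN11* at chr17:33677324-33700720, *SLFN12* at chr17:33737941-33760302 and *SLFN13* at chr17:33762115-33775856 all lie on the minus strand. *SLFN12L* and *SLFN14* follow, whereas *SLFNL1* lies on chromosome 1.

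RefSeq promoter windows, from 250 bases before to 50 bases after the annotated start (GRCh38.p14), were available for *SLFN11* (chr17:35373572-35373871, minus strand) and *SLFN12* (chr17:35433125-35433424, minus strand). They are shown because the members are interferon-inducible genes measured here after activation of NOTCH1, whose intracellular domain acts through the DNA-binding protein RBPJ. Capitals mark matches, on either strand, to the RBPJ motif TGGGAA and the STAT-binding GAS motif TTCNNNGAA.
SLFN11 promoter: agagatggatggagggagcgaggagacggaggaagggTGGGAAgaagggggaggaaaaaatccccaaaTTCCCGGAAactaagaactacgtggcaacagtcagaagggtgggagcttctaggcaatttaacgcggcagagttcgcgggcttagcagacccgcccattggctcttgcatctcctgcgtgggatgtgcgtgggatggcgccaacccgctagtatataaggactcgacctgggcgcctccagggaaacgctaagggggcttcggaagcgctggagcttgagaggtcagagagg
SLFN12 promoter: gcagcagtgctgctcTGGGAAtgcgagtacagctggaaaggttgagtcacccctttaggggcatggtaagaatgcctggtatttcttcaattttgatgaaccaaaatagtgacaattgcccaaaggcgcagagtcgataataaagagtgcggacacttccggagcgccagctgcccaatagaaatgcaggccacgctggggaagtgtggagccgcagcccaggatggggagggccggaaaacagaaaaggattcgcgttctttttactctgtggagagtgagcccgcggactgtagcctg
The *SLFN11* window held 1 TGGGAA match, starting at position -213 from the start site, and 1 GAS match (TTCCCGGAA) starting at -182. The *SLFN12* window held 1 TGGGAA match, at -235. The interferon-stimulated response element, read as GAAA, any 2 bases and GAAA, was matched in neither, and no matches overlapped. Among all 35116 promoter windows in the same table, 24.0% held TGGGAA, 7.66% held TTCNNNGAA and 3.57% held the response element. A match describes the letters of the window and not binding. *SLFN5* and *SLFN13* had no entry.

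The deposited values were log2(RPKM + 1), where RPKM is the number of reads scaled to gene length and library size. Read counts were not given, but the members' low values were whole multiples of what 1 read was worth. All 83 member values of up to 30 reads came out within 0.15 of a whole number. This allowed the reads behind each value to be stated. The smallest library was 0.701 and the largest 1.52 times the median size. At the median size, 1 read was worth 0.00848 RPKM for *SLFN5*, 0.00966 for *SLFN11*, 0.128 for *SLFN12* and 0.460 for *SLFN13*. Thus 1 read of *SLFN13* counted 47.6 times as much as 1 read of *SLFN11*, although the longest annotated coding transcript of *SLFN13* is 8398 bases and that of *SLFN11* 5139 bases. The lengths behind the RPKM are not given in the sources used here. Levels were therefore compared within a gene and not between genes. Of the 50-base words in annotated coding transcripts, 11.0% of those of *SLFN11* and 6.78% of those of *SLFN13* also occur in another *SLFN* gene, mostly each other, so a part of their reads cannot be placed with certainty. For *SLFN12* the share was 1.42%, and for *SLFN5* it was 0.

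*SLFN13* separated *STING1*-KO from intact COR-L88 cells most widely. In intact cells its level was 8.21, 8.04 and 8.32 with DMSO, 7.76, 7.32 and 8.30 with TAS1440, and 8.93, 8.64 and 8.96 with TAS1440 plus GSI. Behind these values lay 344 to 1195 reads per library. In all 6 *STING1*-KO libraries *SLFN13* was listed at 0. With a floor of 3 reads per knockout library, the lowest intact library was at least 85.9-fold higher on the RPKM scale. The floor covers counting error only.

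*SLFN11* and *SLFN12* were also listed at 0 in all 6 *STING1*-KO libraries. *SLFN11* stood at 0.33, 0.19 and 0.34 with DMSO, 0.90, 1.82 and 1.36 with TAS1440, and 1.27, 0.97 and 0.83 with TAS1440 plus GSI, from 12 to 260 reads. Against the same floor the lowest intact *SLFN11* library was at least 3.72-fold higher. *SLFN12* stood at 1.28, 1.55 and 1.46 with DMSO, 0.76, 0.17 and 0.79 with TAS1440, and 1.21, 1.34 and 1.57 with TAS1440 plus GSI. Those values came from 1 to 17 reads, and the lowest intact library lay under the 3-read floor, so no fold is given.

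*SLFN5* did not share the pattern. It was above 0 in all 6 *STING1*-KO libraries, at 0.36, 0.50 and 0.29 with DMSO (22 to 42 reads) and at 1.53, 1.69 and 1.46 with TAS1440 (166 to 240 reads). In intact cells it was 0.43, 0.30 and 0.35 with DMSO and 1.91, 2.05 and 2.14 with TAS1440. The DMSO groups overlapped, the 2 TAS1440 groups did not, and *SLFN5* was higher with TAS1440 than with DMSO in every library of either genotype.

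The knockout's target was not itself absent at the mRNA level. *STING1* (listed as TMEM173) was 0.10 to 0.36 in *STING1*-KO cells with DMSO and 0.96 to 1.16 with TAS1440, against 0.20 to 0.41 and 2.03 to 2.54 in intact cells.

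The genes flanking the Schlafen genes were measured to see how far the zeros extended (the plot of the chromosome 17 neighbourhood). Of the 24 nearest annotated genes in the table, 12 on each side, 11 were above 0 in all 9 intact libraries, and these 11 were also above 0 in all 6 *STING1*-KO libraries. Pooled over treatments, intact and knockout ranges overlapped for 10 of the 11. Pooling widens the ranges, and only intact cells had a TAS1440 plus GSI group. Within TAS1440, *ZNF830* was 2.39 to 2.67 in intact and 2.93 to 3.44 in knockout libraries, without overlap. *RDM1* there was 3.51 to 4.54 and 4.61 to 5.01, also without overlap. Within DMSO, *LIG3* (4.77 to 5.05 and 5.06 to 5.22) and *TAF15* (5.67 to 5.81 and 5.38 to 5.59) did not overlap. *NLE1*, *RAD51D* and *AP2B1* overlapped within each treatment. On the *SLFN5* side, *NLE1* was 1.29 to 2.50 in intact and 1.55 to 2.26 in knockout libraries, and *RAD51D*, a recombination repair gene, was 0.94 to 1.77 and 1.16 to 1.65. On the other side, the clathrin adaptor gene *AP2B1* was 6.92 to 7.35 and 6.87 to 7.50. *RASL10B* was the exception to the pooled overlap, at 0.69 to 1.08 in intact and 1.11 to 1.51 in knockout libraries. The share of all genes that overlap in this way is not given here.

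On the *SLFN5* side the nearest gene with reads in both genotypes was thus *SLFN5* itself, whose annotated end lies 76.7 kb before *SLFN11*. The 3 members without reads span 98.5 kb. Beyond *SLFN13*, *SLFN12L* and *SLFN14* were listed at 0 in all 15 COR-L88 libraries and cannot place the limit on that side. Whether the sequence of this stretch was altered in the *STING1*-KO cells was not tested.

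**Figure D1:**
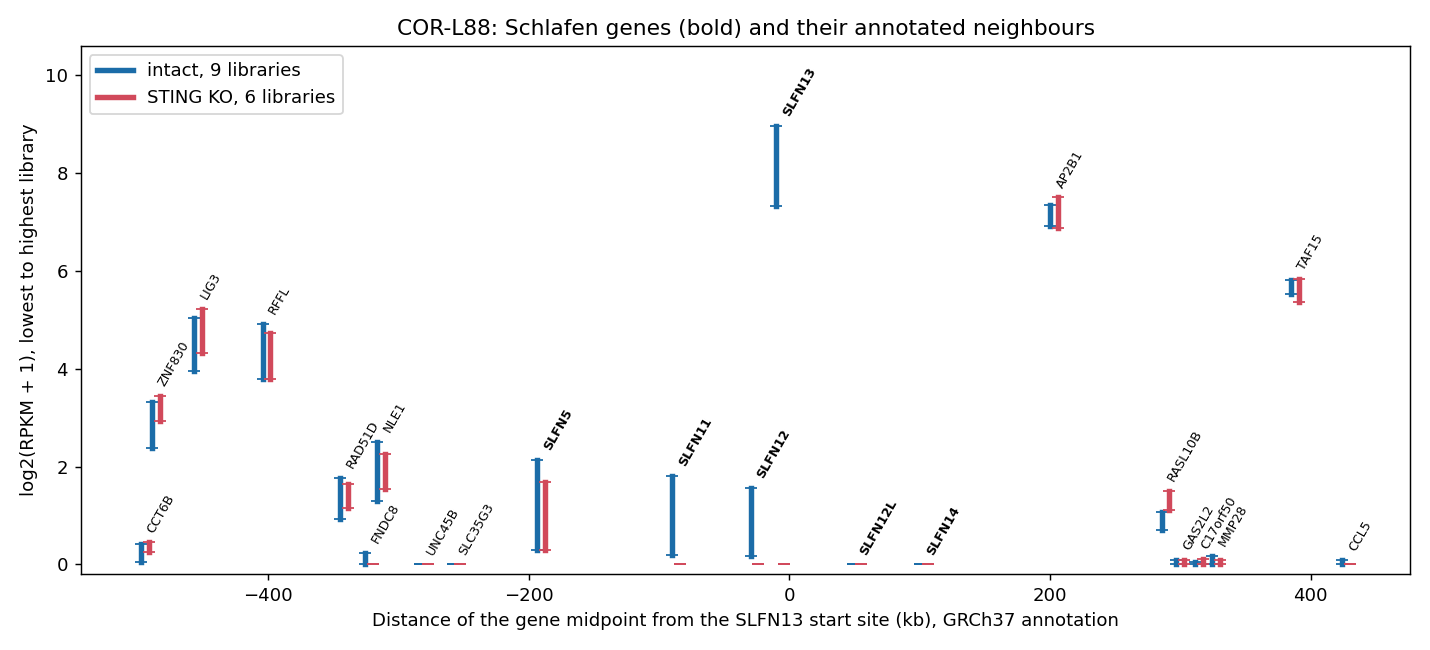
The lowest-to-highest range of log2(RPKM + 1) in the 9 intact (blue) and 6 *STING1*-KO (red) COR-L88 libraries is drawn for each gene against its distance in kb from the *SLFN13* start site. *SLFN11*, *SLFN12* and *SLFN13* fall to 0 in the knockout, whereas *SLFN5*, *NLE1* and *AP2B1* overlap between genotypes.

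Across the whole table, 3 genes were at 0 in all 6 *STING1*-KO libraries and at a log2 value of at least 1 in all 9 intact ones, namely *SLFN13*, *DSC2* and *C9orf142*. *DSC2*, a desmosomal cadherin gene, was 1.42 to 4.45 in intact cells, and *C9orf142* was 1.39 to 3.26. *SLFN11* and *SLFN12* missed this list because some intact libraries lay below 1. No gene showed the opposite pattern. At an intact floor of 2, *SLFN13* was the 1 gene left, with 344 reads in its lowest intact library.

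The order of levels over the 20 groups differed between members (the plot of all libraries). *SLFN13* was highest in intact COR-L88 cells, with a mean of 8.84 ± 0.17 (SD, n = 3) with TAS1440 plus GSI. DMSO followed at 8.19 ± 0.14 and TAS1440 at 7.79 ± 0.49, and these 2 groups overlapped. H82 *REST* KO + Dox came next at 4.41 ± 0.67, below every intact COR-L88 library and overlapping H524 N1ICD + Dox at 3.47 ± 1.17. *SLFN13* was listed at 0 in every library of 5 groups.

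*SLFN12* was highest in H82 *REST* KO + Dox, at 4.13 ± 0.37. No other group overlapped it. H69 N1ICD + Dox (1.55 ± 0.18), COR-L88 DMSO (1.43 ± 0.14), COR-L88 TAS1440 plus GSI (1.38 ± 0.18) and H82 N1ICD + Dox (1.36 ± 0.31) came next, each overlapping its neighbour. *SLFN12* was at 0 in every library of 10 groups, the 3 parental H82, H524 and H69 groups among them.

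*SLFN11* was highest in the same group, H82 *REST* KO + Dox, at 2.18 ± 0.60. It overlapped COR-L88 TAS1440 at 1.36 ± 0.46, which overlapped TAS1440 plus GSI at 1.02 ± 0.23. In parental cells *SLFN11* was 0 in all 3 H82 libraries, 0.01 ± 0.02 in H524 and 0.13 ± 0.04 in H69, with at most 11 reads.

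*SLFN5* was highest in COR-L88 TAS1440 at 2.04 ± 0.11, overlapping H524 N1ICD + Dox at 1.91 ± 0.09. Among parental lines, H69 stood at 0.60 ± 0.09, above H82 (0.01 ± 0.01) and H524 (0 in all libraries). In all, 23 of the 80 member-by-group means reached a log2 value of 1, 5 for *SLFN5*, 3 for *SLFN11*, 6 for *SLFN12* and 9 for *SLFN13*. These counts cannot be compared between genes, because 1 read is worth a different RPKM in each. Of the other family rows, *SLFNL1* ranged up to 3.76, *SLFN12L* up to 0.29, and *SLFN14* was at 0 in 59 of 60 libraries.

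**Figure D2:**
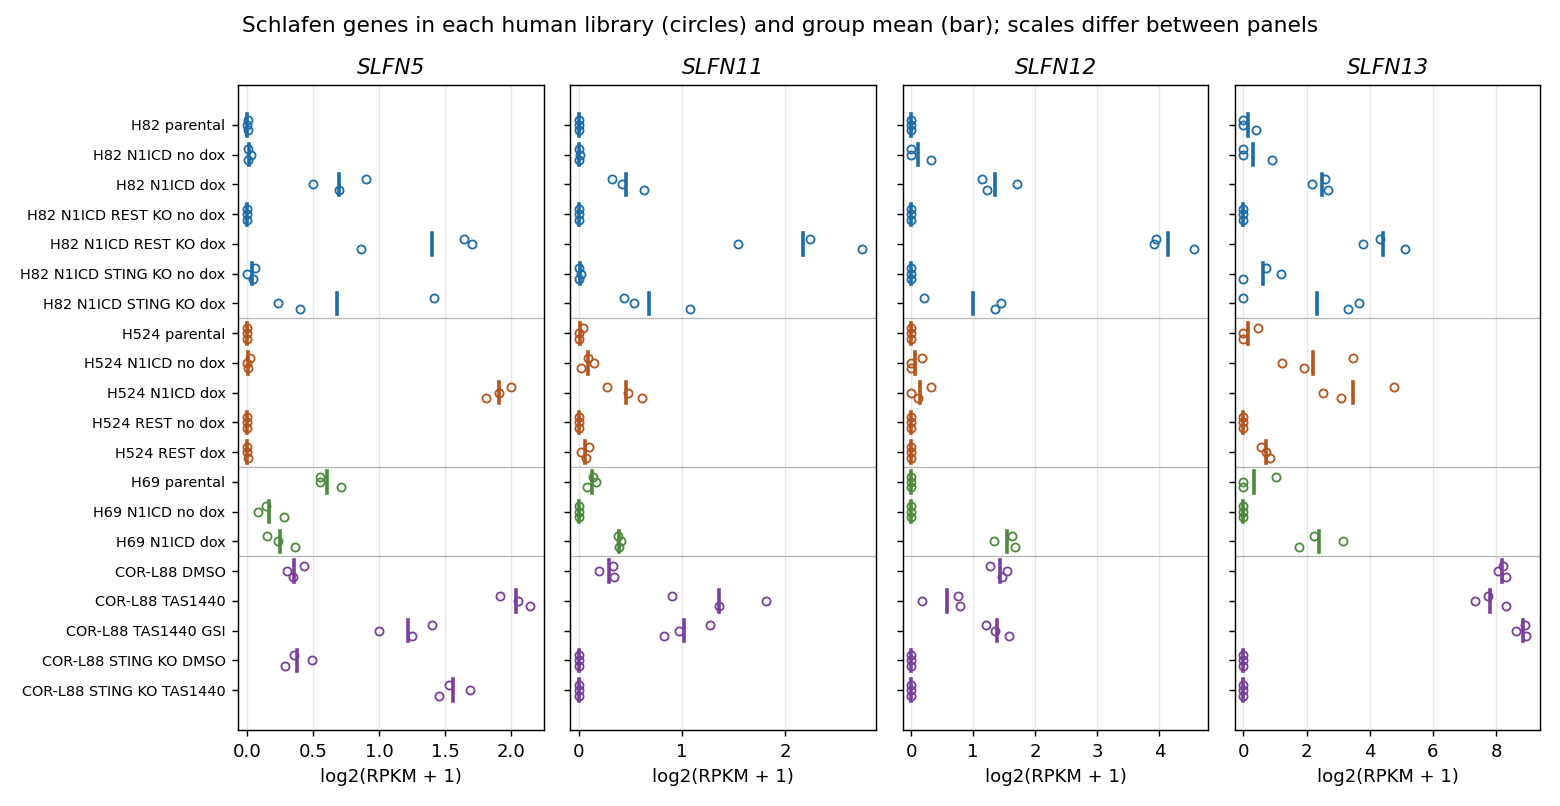
Each circle is the log2(RPKM + 1) of 1 library and each bar the mean of a group of 3, for the 20 human groups, with a scale of its own for each gene. *SLFN13* stands above 7 only in the 3 intact COR-L88 groups, and *SLFN12* and *SLFN11* have their highest means in H82 *REST* KO + Dox.

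Comparisons between groups used limma on all genes of a line that passed a filter on low values (3 or more libraries reaching a log2 value of 1). A gene was called at a Benjamini-Hochberg adjusted *P* below 0.05 with a difference of group means of at least 1 on the log2(RPKM + 1) scale. That scale understates the change of low genes. All 4 members passed the filter in H82 and in COR-L88, *SLFN5* and *SLFN13* passed in H524, and *SLFN12* and *SLFN13* in H69. Most passed through the groups where they were high. In H82 the libraries reaching 1 were all induced, except 1 for *SLFN13*. In H524 *SLFN5* passed only through the 3 induced N1ICD libraries, and in H69 *SLFN12* only through its 3. In COR-L88 *SLFN5* and *SLFN11* passed only through libraries with TAS1440. A member that passed in this way had to differ, so the counts of members called are a description and support nothing.

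In H82 cells, N1ICD induction was accompanied by reads of all 4 members where there had been next to none. *SLFN13* was 0, 0 and 0.92 without Dox and 2.60, 2.19 and 2.69 with Dox (10 to 16 reads), a difference of 2.19 ± 0.64 (SE; limma adjusted *P* = 0.00835). *SLFN12* was 0, 0 and 0.32 without and 1.14, 1.71 and 1.22 with Dox (12 to 23 reads), a difference of 1.25 ± 0.25 (adjusted *P* = 0.000475). *SLFN12* and *SLFN13* were thus called, which is a description only, because they passed the filter almost entirely through induced libraries.

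*SLFN5* was 0.01, 0.03 and 0.01 without and 0.90, 0.51 and 0.70 with Dox, from 1 to 3 against 64 to 130 reads. *SLFN11* was 0, 0.01 and 0 without and 0.32, 0.42 and 0.63 with Dox, from at most 1 against 33 to 76 reads. The groups did not overlap for any of the 4 members, which is a description, as the share of all genes without overlap is not given here. *SLFN5* (adjusted *P* = 0.0249) and *SLFN11* (adjusted *P* = 0.0870) did not reach the difference of 1. Called were 2 of 4 members, beside 27.1% of all genes tested in this comparison. Uninduced N1ICD cells had no called member against the parental line, beside 6.41% of all genes.

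In *REST*-KO H82 cells the members reached higher levels after induction. *SLFN12* was 0 in the 3 uninduced libraries and 3.94, 3.91 and 4.56 with Dox (111 to 177 reads, limma adjusted *P* = 2.01e-10). *SLFN11* was 0 without Dox and 2.24, 1.55 and 2.75 with Dox (209 to 594 reads, adjusted *P* = 1.18e-07). *SLFN13* was 0 without Dox and 4.32, 3.78 and 5.12 with Dox (29 to 74 reads, adjusted *P* = 1.44e-05).

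*SLFN5* was 0 without Dox and 1.64, 1.71 and 0.86 with Dox (97 to 280 reads, adjusted *P* = 9.15e-05). All 4 members were called, beside 29.9% of all genes. Because every uninduced *REST*-KO library was at 0 for all members, no fold is given. Each member had at least 29 reads in every induced *REST*-KO library.

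Among induced H82 cells, *REST* KO was then compared with intact *REST*. *SLFN12* was higher by 2.78 ± 0.25 (limma adjusted *P* = 1.62e-07), *SLFN11* by 1.72 ± 0.21 (adjusted *P* = 6.17e-06) and *SLFN13* by 1.92 ± 0.64 (adjusted *P* = 0.0242), with no overlap between the groups. *SLFN5* was higher by 0.70 ± 0.24, its groups overlapped, and it was not called (adjusted *P* = 0.0279). Thus 3 of 4 members were called higher in the *REST*-KO line. Beside them, 17.6% of all genes were called in either direction, with 1312 of the 13903 tested called higher. The *SLFN13* call was lost without intact library 8 (adjusted *P* = 0.0841), without *REST*-KO library 33 (adjusted *P* = 0.101) and with a pseudocount of 0.1 (adjusted *P* = 0.247).

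The Dox response itself was larger with *REST* KO for *SLFN12* (difference of responses 2.88 ± 0.36, limma adjusted *P* = 1.78e-05) and *SLFN11* (1.73 ± 0.30, adjusted *P* = 0.000575). For *SLFN13* it was 2.22 ± 0.90 (adjusted *P* = 0.104) and for *SLFN5* 0.72 ± 0.34 (adjusted *P* = 0.166). With only the compared groups in the fit *SLFN13* was called (adjusted *P* = 0.00641). Called were 2 of 4 members, beside 12.9% of all genes. Without Dox no member was called between *REST* KO and intact cells, beside 6.24% of all genes.

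The amount of *NOTCH1* mRNA was not matched between these groups. It was 4.75, 4.26 and 5.56 in intact and 8.75, 9.15 and 10.74 in *REST*-KO cells with Dox. Its part in the difference between the members' levels was not tested. *REST* mRNA itself was 6.48, 6.13 and 6.33 in intact and 4.95, 4.95 and 5.89 in *REST*-KO cells with Dox.

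In *STING1*-KO H82 cells each member had reads in at least 2 of the 3 induced libraries. *SLFN13* was 0.71, 1.19 and 0 without Dox and 0, 3.68 and 3.31 with Dox, a difference of 1.70 ± 0.64 (limma adjusted *P* = 0.0437) with overlapping groups. *SLFN12* was 0 without and 0.21, 1.44 and 1.36 with Dox (1 to 11 reads, adjusted *P* = 0.00420). *SLFN11* was 0, 0.02 and 0 without and 0.44, 0.53 and 1.08 with Dox, and *SLFN5* was 0.07, 0 and 0.05 without and 1.42, 0.23 and 0.40 with Dox.

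Called were 2 of 4 members, *SLFN12* and *SLFN13*, beside 20.2% of all genes, and neither call held throughout. With only the 2 compared groups in the fit, the adjusted *P* was 0.0501 for *SLFN12* and 0.208 for *SLFN13*. Induced library 58 stood apart. It had no *SLFN13* read and 1 *SLFN12* read, but 162 *SLFN5* reads, against 17 and 31 in the other 2 libraries. Its *NOTCH1* level was 5.97, against 7.41 and 7.48.

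With Dox, *STING1* KO did not differ from intact cells in a called member, beside 16.5% of all genes. The differences were -0.02 ± 0.24 for *SLFN5*, 0.23 ± 0.21 for *SLFN11*, -0.36 ± 0.25 for *SLFN12* and -0.16 ± 0.64 for *SLFN13*. Without library 58 the *SLFN13* difference was 1.00, with an adjusted *P* of 0.0438 in limma. Without Dox no member was called, beside 14.4% of all genes. The Dox responses of *STING1*-KO and intact cells likewise gave no called member, beside 7.12% of all genes. *STING1* mRNA was 1.27 to 2.04 in induced knockout and 1.07 to 1.17 in induced intact cells.

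In H524 cells *SLFN5* was the member called with N1ICD. It was 0.03, 0 and 0.01 without Dox (at most 2 reads) and 2.00, 1.91 and 1.81 with Dox (355 to 451 reads), a difference of 1.89 ± 0.09 (limma adjusted *P* = 3.10e-09). *SLFN13* was 3.47, 1.21 and 1.93 without and 4.78, 2.53 and 3.09 with Dox, a difference of 1.26 ± 0.54 with overlapping groups (adjusted *P* = 0.0907). Of the 2 members that passed the filter 1 was called, beside 18.6% of all genes. Without uninduced library 22 or without induced library 26, *SLFN13* was called too (adjusted *P* = 0.00847 and 0.0369).

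*SLFN11*, under the filter in H524, was 0.08, 0.15 and 0.02 without Dox and 0.28, 0.48 and 0.61 with Dox, or 2 to 12 against 22 to 83 reads, without overlap. *SLFN12* had at most 2 reads in any H524 library.

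*SLFN13* was already higher in uninduced N1ICD cells than in parental H524 cells, at 0.48, 0 and 0 in the latter. The difference was 2.05 ± 0.54 (limma adjusted *P* = 0.0137), and 1 of 2 members was called, beside 12.1% of all genes. Without library 22 the adjusted *P* was 0.0512, and with only the 2 compared groups it was 0.0865. The parental libraries had at most 1 read and the uninduced N1ICD libraries 3, 8 and 21.

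Overexpressed *REST* did not bring the same values. *SLFN5* was 0 in the uninduced *REST* line and 0, 0 and 0.01 with Dox, and *SLFN13* was 0 without and 0.57, 0.71 and 0.85 with Dox, from 1 or 2 reads. No member was called, beside 1.87% of all genes, nor between the uninduced *REST* line and parental cells, beside 0.264% of all genes. Between the induced lines, N1ICD exceeded *REST* by 1.90 ± 0.09 for *SLFN5* (limma adjusted *P* = 2.83e-09) and by 2.76 ± 0.54 for *SLFN13* (adjusted *P* = 0.00100). The 2 members that passed the filter were called, beside 23.8% of all genes. The Dox response differed between the lines for *SLFN5*, by 1.89 ± 0.13 (adjusted *P* = 2.98e-07), and not for *SLFN13* (0.56 ± 0.76, adjusted *P* = 0.662), so 1 of 2 was called, beside 15.6% of all genes.

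In H69 cells *SLFN12* and *SLFN13*, the 2 members that passed the filter, were called with N1ICD. *SLFN12* was 0 without Dox and 1.62, 1.34 and 1.68 with Dox (9 to 13 reads, limma adjusted *P* = 4.66e-07). *SLFN13* was 0 without and 2.24, 3.15 and 1.78 with Dox (4 to 13 reads, adjusted *P* = 0.000297). In this comparison 41.8% of all genes were called. *SLFN11* had no read without Dox and 23 to 26 reads with Dox, at 0.38, 0.41 and 0.38.

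*SLFN5* in H69 was highest in the parental line, at 0.55, 0.55 and 0.71. It was 0.15, 0.08 and 0.28 in uninduced and 0.16, 0.24 and 0.37 in induced N1ICD cells, which overlapped each other and not the parental group. Neither of the 2 members tested was called between uninduced and parental cells, beside 5.27% of all genes.

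In intact COR-L88 cells *SLFN5* and *SLFN11* were higher with TAS1440. *SLFN5* rose from 0.43, 0.30 and 0.35 with DMSO to 1.91, 2.05 and 2.14, a difference of 1.67 ± 0.12 (limma adjusted *P* = 1.21e-07). *SLFN11* rose from 0.33, 0.19 and 0.34 to 0.90, 1.82 and 1.36, a difference of 1.07 ± 0.18 (adjusted *P* = 0.000244). The *SLFN11* difference fell short of 1 without TAS1440 library 14 (0.84), after quantile normalization (0.87) and with median-centred libraries (0.93).

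*SLFN12* was lower with TAS1440 by 0.85 ± 0.16 on the log2 scale (adjusted *P* = 0.000383), 1 to 7 reads against 10 to 16, short of the difference of 1. It passed that difference with a pseudocount of 0.1 (-1.75, adjusted *P* = 0.00343) and after quantile normalization (-1.04, adjusted *P* = 5.29e-05). *SLFN13* differed by -0.40 ± 0.18 with overlapping groups (adjusted *P* = 0.0782). Called were 2 of 4 members, beside 22.8% of all genes.

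GSI added to TAS1440 bore on the members unequally. *SLFN13* was the called member, at -1.05 ± 0.18 for TAS1440 minus TAS1440 plus GSI (limma adjusted *P* = 0.000455). *SLFN12* showed -0.80 ± 0.16 (adjusted *P* = 0.000956) and *SLFN5* 0.82 ± 0.12 in the other direction (adjusted *P* = 0.000128), neither past a difference of 1. *SLFN11* showed 0.33 ± 0.18 (adjusted *P* = 0.156). Called was 1 of 4 members, beside 14.7% of all genes, and that call needed both TAS1440 library 14 and TAS1440 plus GSI library 18. Without them the *SLFN13* difference was -0.81 and -0.99.

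Against DMSO, TAS1440 plus GSI gave differences of 0.86 ± 0.12 for *SLFN5*, 0.74 ± 0.18 for *SLFN11*, -0.05 ± 0.16 for *SLFN12* and 0.65 ± 0.18 for *SLFN13*. None of the 4 members was called, beside 9.02% of all genes, although the groups did not overlap for *SLFN5*, *SLFN11* and *SLFN13*. The limma adjusted *P* was 0.000142 for *SLFN5*, 0.00996 for *SLFN11* and 0.0198 for *SLFN13*, so these fell short only of the difference of 1. *SLFN12* with GSI overlapped the DMSO group. Of the 9 comparisons of all lines in which limma called no member, this was the 1 with unadjusted *P* values below 0.05, for 3 of 4 members. In the other 8 there were 0. The shares of all genes without overlap, or with an unadjusted *P* below 0.05, are not given here, so these counts are a description.

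**Figure D3:**
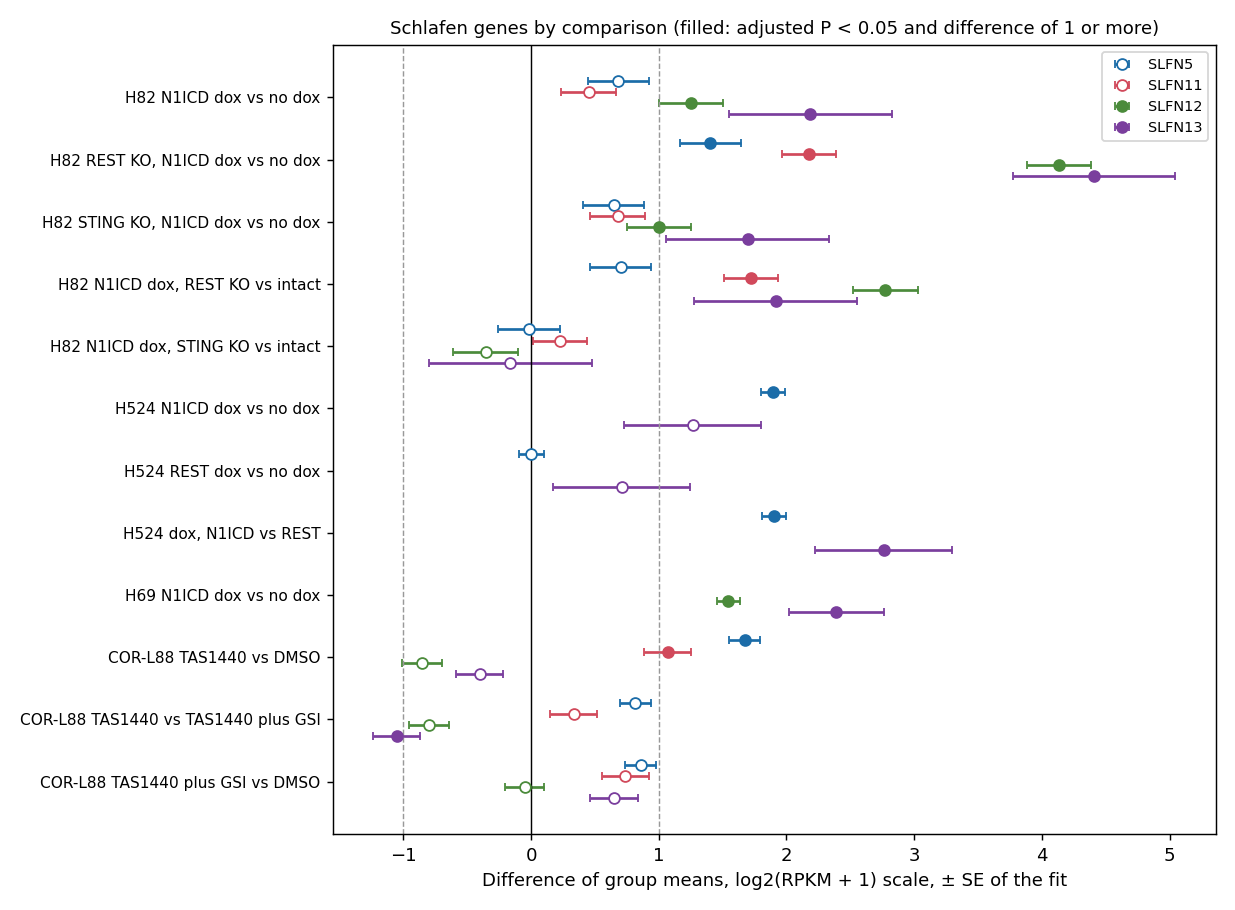
Differences of group means (points, log2(RPKM + 1) scale) with the SE of the limma fit (bars) are plotted for the tested members in 12 comparisons, filled where called. All 4 members are filled in *REST*-KO H82 cells with Dox, *SLFN5* alone in H524 N1ICD, and COR-L88 TAS1440 shows *SLFN5* and *SLFN11* above and *SLFN12* below 0.

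Other genes of the pathways were taken from lists. *PDE3A*, the binding partner of SLFN12, was in the list of 17 partners and replication stress genes. In H82 it was 0.01 to 0.05 without Dox, 1.13 to 1.27 with Dox and 2.68 to 3.24 in *REST*-KO cells with Dox. Both rises were called, by 1.16 ± 0.14 (limma adjusted *P* = 1.91e-06) and by 2.86 ± 0.14 (adjusted *P* = 1.11e-11). In H69 it was at least 1.29 without and 2.37 to 2.41 with Dox, a called rise of 1.02 ± 0.07. In COR-L88, where *SLFN12* was measured in all intact libraries, *PDE3A* was at most 0.01.

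Of the 17 genes of that list 1, *PDE3A*, was called higher in H82 N1ICD cells and 6 were called lower, beside 27.1% of all genes in either direction. The 6 included the topoisomerase gene *TOP2A* (-1.52 ± 0.42) and the replication licensing factor gene *CDT1* (-2.35 ± 0.42). The median difference of the list was -0.57, against -0.0026 for all genes tested. In *REST*-KO H82 cells with Dox 1 was called higher and 2 lower, with a list median of -0.28. In H524 N1ICD cells the list median was -0.32. In H69 N1ICD cells 1 was called higher and 2 lower, with a list median of 0.23 against 0.083 for all genes. In COR-L88 with TAS1440, 0 of 16 were called higher and 1 lower, *TOP2A*, by -1.89 ± 0.22.

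Of 10 regulators of *SLFN11* known from other work, *ETS1*, an ETS family transcription factor gene, was called higher with Dox in H82 (1.32 ± 0.22), in *REST*-KO H82 (2.86 ± 0.22) and in H524 (3.23 ± 0.24). *ETS1* did not follow *SLFN11* everywhere. In COR-L88 *ETS1* was 2.09 to 2.44 with DMSO and 0.45 to 0.64 with TAS1440 plus GSI, where *SLFN11* was higher by 0.74. In parental H69 cells *ETS1* was 4.43 to 4.65, with *SLFN11* at a mean of 0.13. *EZH2*, whose product deposits the repressive H3K27 methyl mark, was called lower in H69 with Dox (-1.08 ± 0.06) and not in H82, where no gene of the list was called lower. In COR-L88 with TAS1440 against DMSO 1 gene of the list was called higher and 1 lower. With TAS1440 plus GSI against DMSO it was 1 higher and 2 lower.

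Genes stimulated by interferon rose with N1ICD and with TAS1440, also in comparisons where some members did not. Of the 20 in the list 12 were tested in H82, and 10 of these 12 were called higher in H82 with Dox and 0 lower, *IFIH1* by 7.15 and *CMPK2* by 4.24, with a list median of 1.48. In *REST*-KO cells with Dox it was 10 of 12, with a median of 2.80. In H524 N1ICD 7 of 13 were called higher and 0 lower, in H69 14 of 16 higher and 1 lower, and in COR-L88 with TAS1440 10 of 11 higher and 0 lower. Beside these, 27.1% of all genes were called in H82 with Dox and 29.9% in *REST*-KO H82 with Dox. The share was 18.6% in H524 N1ICD, 41.8% in H69 and 22.8% in COR-L88 with TAS1440. In that last comparison *SLFN12* was lower by 0.85 and *SLFN13* differed by -0.40. In H69 *SLFN5* overlapped between uninduced and induced cells. For TAS1440 plus GSI against DMSO the list median was 0.16. In induced H82 cells with *STING1* KO against intact, 4 of 12 were called lower and the median was -0.59, beside 16.5% of all genes called in either direction.

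Markers of the cells also moved with induction. The summed level of 6 neuroendocrine markers was 34.6 to 35.6 in H82 N1ICD cells without and 7.96 to 10.5 with Dox, and in *REST*-KO cells 33.7 to 34.2 and 19.0 to 20.9. In H69 it was 35.7 to 38.1 without and 5.29 to 5.68 with Dox, and in COR-L88 36.0 to 36.7 with DMSO and 14.0 to 17.2 with TAS1440. In H524 it was 38.4 to 39.3 without and 26.6 to 32.1 with Dox in N1ICD cells, where 5 of the 6 markers were called lower and 1 higher. The summed level of the 9 markers in the table, of 10 listed, of leukocytes, fibroblasts and endothelium was 2.64 to 5.72 without and 13.9 to 16.6 with Dox in H82. In *REST*-KO H82 cells with Dox it was 17.5 to 18.6, and in H69 11.5 to 12.0 without and 29.7 to 29.8 with Dox. In H524 N1ICD cells it was 4.62 to 8.51 without and 17.9 to 19.8 with Dox. *COL1A1* and *PDGFRB* made up much of these sums, while the T cell marker *CD3E* was at 0 in all 3 intact H82 N1ICD libraries with Dox. *COL1A2*, the other fibroblast marker of the list, was at 0 in every library of H82 N1ICD + Dox and H82 *REST* KO + Dox. That was not so in H69 or H524 N1ICD cells with Dox. In the *STING1*-KO COR-L88 groups the sum was 1.40 to 3.41, against 2.18 to 4.21 in intact groups. The part of these shifts in the members' levels was not tested. In bulk samples, fewer expressing cells and less RNA per cell cannot be told apart.

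Over the 20 group means, with the members themselves left aside, *SLFN12* was most like *RASAL3* (Pearson's *r* = 0.93), *ZNF98* (*r* = 0.91) and *CD93* (*r* = 0.90), among 15888 genes considered. *SLFN5* was most like *RAB43* (*r* = 0.95), *PLSCR4* (*r* = 0.91) and *ABCC3* (*r* = 0.91). *SLFN11* was most like *RASAL3* and *PTHLH* (both *r* = 0.82). *SLFN13* was most like *ZNF503-AS1* (*r* = 0.89), *BHMT2* (*r* = 0.86) and *ZSCAN31* (*r* = 0.81). Among the members themselves, *SLFN11* and *SLFN12* gave *r* = 0.85, above *SLFN11* with *RASAL3*. *SLFN11* and *SLFN13* gave 0.67, and *SLFN5* and *SLFN12* 0.36. These describe 20 groups from 4 lines that share backgrounds and scaling. The groups include the *STING1*-KO COR-L88 groups whose zeros led to the choice of the members. The values among members are therefore in part fixed by that choice and support nothing.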

How the data were processed

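Poly(A) RNA was sequenced from 60 human and 9 mouse KP1 libraries with a stranded kit. Per the study's methods and processing notes, the authors trimmed reads (Cutadapt), aligned them (STAR, hg19 or mm10), quantified genes (RSEM), applied TMM scaling (edgeR) and deposited log2 values, log2(RPKM + 1), in 1 table per species. Versions, gene lengths and the annotation are not given in the sources used here.

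The human and KP1 tables were scaled separately and were tested separately. Differences were tested with limma 3.58.1 in R 4.3.3 on the deposited log2 values, with 1 mean per group, a variance trend and all groups of a line in 1 fit. The study's count-based fit could not be run on these values. Genes reaching a log2 value of 1 in 3 or more of a line's libraries were tested, and *P* values were adjusted (Benjamini-Hochberg) over all of them. The fit was tested on simulated data. Groups in which every library is at 0 add no spread to the fit and lower the estimate of the error. Relative library sizes came from 3667 genes listed at 0 in at least 30 libraries, by the commonest ratio between libraries, and reads from the smallest step of each gene. Depth in total reads is unknown.

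Positions came from GENCODE (GRCh37), where 19060 of 20516 symbols matched. Motifs were searched on both strands. The members and gene lists were chosen with earlier results of these data known. Named genes were the members, other *SLFN* rows, *NOTCH1*, *REST* and *STING1*, up to 2 called genes per list and direction, the 3 most correlated genes per member (1 is not reported here), up to 10 genes with the choosing pattern, and the nearest neighbours. *RAD51D*, *ZNF830*, *RDM1*, *LIG3* and *TAF15* were named after their values were seen. Alternatives tried were a pseudocount of 0.1, omission of the filter, quantile normalization, fits to only the compared groups, centring libraries on their median, variances with no trend, and leaving out each library.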

Additional observations from a re-analysis of the deposited data

Results flagged for a closer look

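3 differences between human groups were called by a test of the difference itself, all on the log2(RPKM + 1) scale and in limma. These members passed the filter in that line only through induced libraries, so the calls are a description and support nothing. In H82 cells the Dox response was larger with *REST* KO than with intact *REST* by 1.73 for *SLFN11* and by 2.88 for *SLFN12*, both higher in 3 of 3 induced *REST*-KO libraries. The Dox response of *NOTCH1* mRNA was larger there too, by 4.53, and its part was not tested. In H524 cells the Dox response of *SLFN5* was larger with N1ICD than with *REST* by 1.89, with every induced N1ICD library above every induced *REST* library.

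A signal also appeared in the mouse KP1 table, which the comparisons of the human lines do not use. *Slfn5* was higher with TAS1440 than with DMSO by 1.07 (limma adjusted *P* = 0.0197) and than with TAS1440 plus GSI by 1.10 (adjusted *P* = 0.0196). It was 1.43, 2.40 and 1.16 with TAS1440, 0.29, 0.73 and 0.75 with DMSO, and 0.44, 0.87 and 0.37 with TAS1440 plus GSI. Of all genes tested, 18.8% and 16.5% were called. Without TAS1440 library 5 the differences were 0.70 and 0.73, and with no filter the adjusted *P* was 0.0515 and 0.0529. The call against DMSO was also lost without DMSO library 1 (0.93, adjusted *P* = 0.0763), and that against TAS1440 plus GSI without its library 7 (1.04, adjusted *P* = 0.0659) or 9 (1.01, adjusted *P* = 0.0570).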

How the results depend on the processing

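Of 275 recomputed main counts, 252 stayed within 1.5 times the value reported and 23 did not. The called members changed as follows. A pseudocount of 0.1 gave 4 in H82 N1ICD with Dox, 3 in COR-L88 TAS1440 against TAS1440 plus GSI and 2 in TAS1440 plus GSI against DMSO. In *STING1*-KO H82 with Dox, no filter gave 1, quantile normalization 0, median-centred libraries 1 and only the compared groups 0. Uninduced H524 N1ICD against parental gave 0 with only the compared groups, and COR-L88 TAS1440 against DMSO gave 1 with median-centred libraries. Leaving out 1 library gave 0 to 2 in *STING1*-KO H82 with Dox, 0 to 1 in induced *STING1* KO against intact, 1 to 2 in H524 N1ICD with Dox, 0 to 1 in uninduced H524 N1ICD against parental, 1 to 2 in COR-L88 TAS1440 against DMSO and 0 to 1 in TAS1440 against TAS1440 plus GSI. The count of genes with the choosing pattern was 6 at an intact floor of 0.5, 1 at a floor of 2 and 5 with a knockout ceiling of 0.1. The causes were not tested.

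Differences that changed sign were all uncalled in the fit reported. For induced *STING1* KO against intact H82, *SLFN5* was 0.035 with median-centred libraries and -0.38 to 0.21 when 1 library was left out, *SLFN12* -0.58 to 0.041 and *SLFN13* -0.83 to 1.00. For the matching difference of responses, *SLFN5* ranged from -0.40 to 0.19, *SLFN12* from -0.47 to 0.15 and *SLFN13* from -1.16 to 0.68. For the H524 difference of responses, *SLFN13* was -1.34 with a pseudocount of 0.1 and -0.10 to 1.19 with 1 library left out. For COR-L88 TAS1440 plus GSI against DMSO, *SLFN12* ranged from -0.15 to 0.030. No paired analysis was possible because each library carries a number of its own, shared with no other group. Differences were recomputed only where the higher group mean was at least 0.5. *SLFN12* rests on at most 23 reads per library outside *REST*-KO H82 with Dox, and *SLFN13* on at most 74 outside COR-L88.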

Other observations

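In KP1 cells, *Slfn9* was 2.14, 2.09 and 2.27 with DMSO, 2.62, 2.47 and 2.33 with TAS1440, and 2.29, 2.01 and 1.86 with TAS1440 plus GSI. It was tested and not called. *Slfn2* was 1.55 in TAS1440 library 5, 0.03 in 1 other TAS1440 library and 0 in the remaining KP1 libraries, and *Slfn4* was 0.29 in library 5 and 0 elsewhere. *Slfn3*, *Slfn8*, *Slfn10-ps* and *Slfnl1* stayed below 0.19 in every library.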
